A study of Mus musculus with 18 samples.

Results

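The oxidized RibOxi-seq libraries of Snord67KO-1, a knockout clone of the mouse mammary carcinoma line 4T1, were compared with those of unedited 4T1 WT cells by the total count of each gene. A member is a gene with 50 or more counts over the 6 libraries after positions marked as mispriming and the ribosomal RNA precursor gene Rn45s were left out. There were 6206 such genes of 19696 in the table, of which 19198 had at least 1 count in these libraries. The totals of 84 genes were exactly 50 and those of 84 others exactly 49, and the median member had 106 counts. Both groups were 4T1 cells carrying a lentiviral mCherry and Renilla luciferase reporter and kept under puromycin, with 3 biologic replicates each. Snord67KO-1 had been made with Cas9 and paired guide RNAs against Snord67 and grown from 1 cell, so that the effect of the edit and the particulars of 1 clone cannot be told apart. A second clone, Snord67KO-2, also with 3 libraries, was used only to ask where the clones differed. In RibOxi-seq, poly(A) RNA is fragmented and the free 3′ ends are removed by rounds of oxidation and elimination, so that fragments ending at a 2′-O-methylated base are kept. A gene total of these 3′ ends was used here as a measure of RNA level, and it also holds whatever methylation and background ends the gene has.

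Small nucleolar RNAs (snoRNAs) of the box C/D class are processed from the introns of host genes and bind Fbl, Nop56, Nop58 and Snu13 to form a particle that methylates the ribose of a base paired to the guide sequence. Snord67 sits in an intron of Ckap5, which encodes a microtubule polymerase, and guides methylation of the U6 small nuclear RNA, a core component of the spliceosome. 4T1 cells are epithelial in origin, form keratins and cadherin junctions, and are widely used as a transplantable model of metastatic mammary carcinoma.

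The edited gene and the guides are shown because they define the clone. Snord67 (ENSMUSG00000077221.1) lies on the plus strand at chr2:91596070-91596180 of GRCm38, inside an intron of Ckap5 (chr2:91526762-91620664). The GENCODE M21 transcript is 111 bases long, and the capitals mark the bases matched by guides 1 and 2.
Snord67: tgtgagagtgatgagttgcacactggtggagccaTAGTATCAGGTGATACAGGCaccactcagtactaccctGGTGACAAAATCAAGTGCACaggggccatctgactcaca
Snord67 sgRNA 1: gcctgtatcacctgatactaTGG
Snord67 sgRNA 2: ggtgacaaaatcaagtgcacAGG
Snord67 sgRNA 3: ggcaccactcagtactacccTGG
Snord67 sgRNA 4: gtgacaaaatcaagtgcacaGGG
In the guides the capitals mark the adjacent NGG motif, which follows each of the 4 guides at its match. Guide 1 matches the minus strand at bases 35 to 54 of the snoRNA, and the others match the plus strand, guide 2 at bases 73 to 92, guide 3 at bases 52 to 71 and guide 4 at bases 74 to 93. Which pair gave this clone is not given in the sources used here.

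No position carried the name Snord67 in any of the 6 libraries, WT included, so that these poly(A) libraries could not be used to check its loss. A count of 0 allows up to 3 counts in a library, and 0.546% of the counts named Ckap5 lie inside the Snord67 interval. Its host Ckap5 had 29, 54 and 26 counts in 4T1 WT and 27, 20 and 27 in Snord67KO-1. In CPM (counts per 1000000 of the library's total after exclusions, scaled by the trimmed mean of M values) the level was 85.6 ± 34.5 (SD, n = 3) in WT and 51.7 ± 5.40 in Snord67KO-1. The log2 difference of -0.74 (SE 0.29) did not pass the threshold in edgeR's quasi-likelihood test (adjusted p = 0.0911). WT replicate 2 was the highest of the 6 libraries for this gene.

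The labelled cell type was checked against 10 epithelial markers. Krt18 had 57 to 199 counts in the WT libraries and 274 to 338 in Snord67KO-1, Krt8 30 to 56 and 131 to 220, Krt7 37 to 64 and 32 to 43, and Cdh1 48 to 83 and 24 to 37. The basal keratin Krt14 had 2 counts over the 6 libraries. Summed over each group, Krt19 had 18 counts in WT and 23 in Snord67KO-1, and Epcam 60 and 31. The claudin genes were lower in Snord67KO-1, with 151 and 2 counts for Cldn4, 13 and 1 for Cldn3 and 7 and 0 for Cldn7. Of 18 myeloid and lymphoid marker genes in the table, none reached 50 counts, and their summed count was 9 to 15 in a WT library and 13 to 42 in a Snord67KO-1 library. Ptprc, the pan-leukocyte marker, had 0 counts in each WT library and 10, 0 and 1 in Snord67KO-1. Of 19 fibroblast and endothelial markers, 1 passed the filter, Acta2, and the summed counts were 26 to 119 in WT and 40 to 97 in Snord67KO-1.

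The WT libraries held 625093 to 737219 counts and the Snord67KO-1 libraries 491836 to 686776, and after the exclusions 401459 to 538635 and 336760 to 509242 counts were left. Exon shares were taken over all annotated genes in the table, members or not. The share of counts in the annotated exons of the named gene was 34.5% to 45.1% in WT and 40.7% to 42.6% in Snord67KO-1. The groups overlapped (exact permutation p = 0.4, two-sided). Members in which 1 position holds 20% or more of the counts took 57.5% to 66.5% of the counts in WT and 50.2% to 56.0% in Snord67KO-1, with no overlap (exact permutation p = 0.1). When only those members were left out of all annotated genes, 72.8% to 73.7% of the counts of a WT library lay in annotated exons. The shares were 60.6%, 69.1% and 70.0% in Snord67KO-1 replicates 1, 2 and 3. Genes below the filter of 50 counts enter these shares. The groups did not overlap (exact permutation p = 0.1, two-sided, the smallest that 3 against 3 allows), and replicate 1 stood apart from the other knockout libraries. Genes with at least 1 count numbered 12730 to 13241 in WT and 14449 to 17206 in Snord67KO-1 (exact permutation p = 0.1). The part of these shares in the results was not tested. Values from fits on exon counts alone are given beside several of the lists.

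Of the 6206 genes, 649 were higher and 445 lower in Snord67KO-1 than in WT (edgeR quasi-likelihood test, two-sided, Benjamini-Hochberg adjusted p under 0.05 over all genes tested). These are 10.5% and 7.17% of the genes tested and 17.6% together, and they are the background against which the gene lists below are read. The median log2 difference over all genes was -0.02, the median called gene was 2.94-fold higher or fell by 1.17 on the log2 scale, and 547 and 301 genes respectively differed by over 1 on the log2 scale. Replicates did not overlap between the groups for 2225 genes (35.9%), among them 636 of those called higher and 430 of those called lower. With library totals as the only scaling the split was 857 higher and 171 lower, 83.4% against 59.3% of calls in the higher direction, and the median of all genes moved to 0.20. Without Snord67KO-1 replicate 1 there were 394 higher and 221 lower calls, and without WT replicate 1 there were 372 and 252. In bulk libraries a smaller share of cells with a transcript and less of it per cell cannot be told apart.

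**Figure D1:**
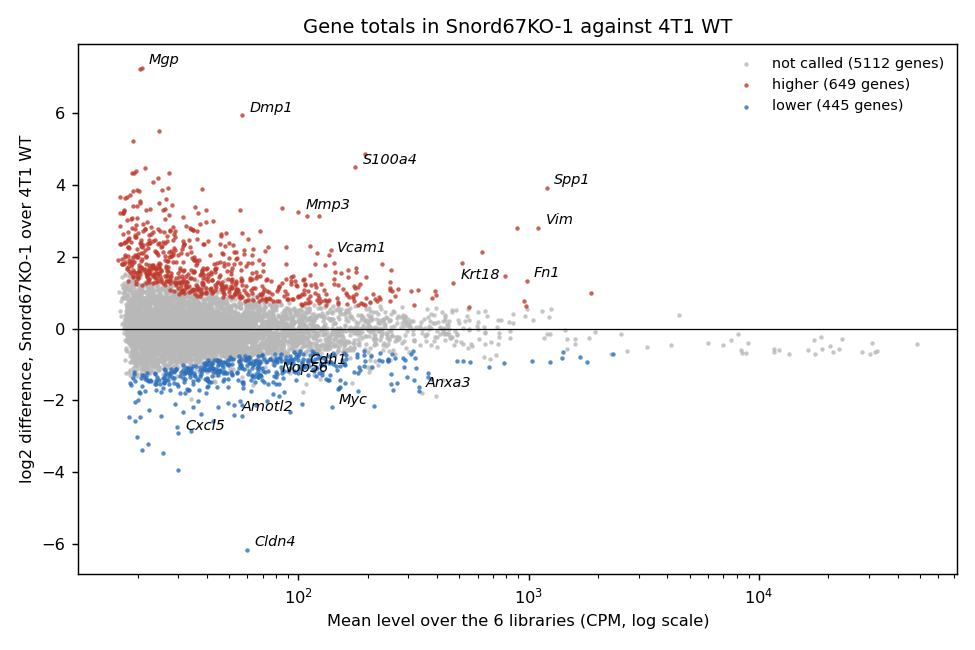
Each point is 1 of 6206 genes, with its mean level over the 6 libraries in CPM on a log axis and its log2 difference of Snord67KO-1 over 4T1 WT. The 649 genes called higher are red and the 445 called lower blue; Spp1 and Vim stand out at high levels, Mgp and Dmp1 at low ones, and Cldn4 lies far below all other genes.

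Matrix genes and their proteases were mostly higher where they were called. Of 36 tested members 12 were higher and 2 lower, 33.3% against the 10.5% of all genes, with a median log2 difference of 0.57. Spp1 (ENSMUSG00000029304.14, chr5:104435118-104441050) encodes osteopontin, a secreted phosphoprotein that binds integrins and CD44. Its level was 137, 146 and 163 CPM in the 3 WT libraries and 2021, 2240 and 2504 CPM in the Snord67KO-1 libraries. Every knockout library thus lay more than 10 times above every WT library, and the fitted rise was 15.2-fold (log2 3.92, SE 0.22, adjusted p = 1.5e-07). Mmp3 (chr9:7445822-7455975), the matrix metalloprotease stromelysin, was at 18.7, 16.2 and 22.1 CPM in WT and 155, 174 and 213 CPM in Snord67KO-1, a 9.46-fold rise (adjusted p = 3.95e-06). Fn1 (chr1:71585520-71653200), which encodes fibronectin, was at 575, 586 and 510.3 CPM in WT and 1334, 1470 and 1399 CPM in Snord67KO-1. The replicates of Fn1 lay close together within each group and the rise was 2.51-fold (log2 1.33, SE 0.19, adjusted p = 0.000574). P4ha1, a collagen prolyl hydroxylase subunit, rose 4.29-fold (adjusted p = 0.000476). The other members called higher were Ltbp3, Col6a1, Col5a1, Col18a1, Ltbp1, Serpine2, Igfbp4 and Matn2, while Adamts1 and Igfbp7 were lower. The 12 higher calls of this list were 11 or 12 when any 1 library was left out and 13 when only counts in annotated exons were used.

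Dmp1 and Ank were named by the rule, and Mgp was picked after its values were seen. Dmp1 encodes a phosphoprotein of the same family as osteopontin. It had 0, 0 and 2 counts in WT and 51, 31 and 86 in Snord67KO-1, a ratio of 73.6 by summed counts (95% interval 20.05 to 612, counting error only; adjusted p = 4.04e-05). Mgp, matrix Gla protein, an inhibitor of calcification, had 0 counts in each WT library and 24, 14 and 23 in Snord67KO-1, which is at least 17.8-fold higher against a floor of 3 counts over the WT group (adjusted p = 0.000221). Ank, a transporter that exports pyrophosphate and so limits mineral deposition, rose 4.57-fold, from 49.8 ± 13.5 CPM (SD, n = 3) to 227 ± 15.3 CPM (adjusted p = 7.43e-05).

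**Figure D2:**
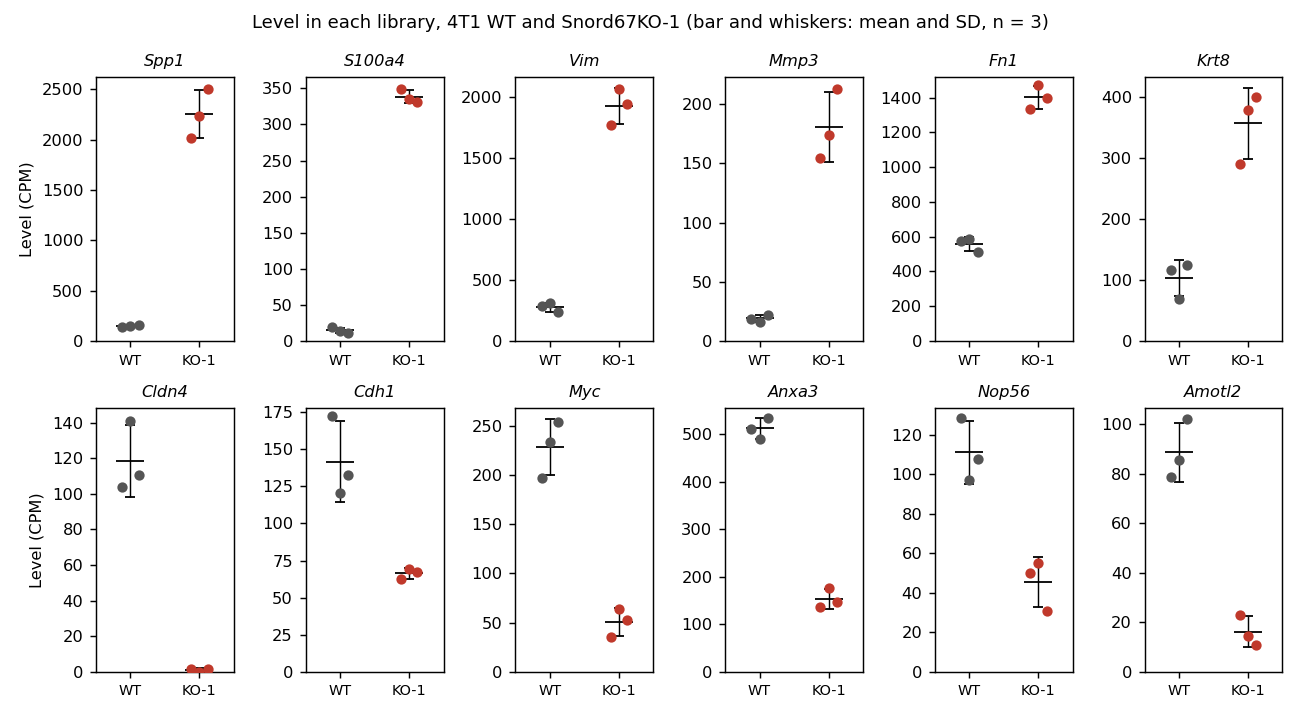
Level in CPM of 12 genes in each of the 3 4T1 WT (grey) and 3 Snord67KO-1 (red) libraries, with the mean and SD of each group; the axes start at 0 and differ between genes. The groups do not overlap for any of the 12, and Cldn4 is at 0 to 1.82 CPM in Snord67KO-1.

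The small calcium-binding S100 proteins and the membrane-binding annexins gave the largest called share among the lists with 9 or more tested members. Of 12 tested members 8 were higher (66.7%) and 1 lower, with a median log2 difference of 1.00. S100a4 (chr3:90603771-90606045), a metastasis-associated S100 protein, had 9, 6 and 4 counts in WT and 196, 116 and 182 in Snord67KO-1. In CPM the knockout libraries lay within 331 to 349, the WT libraries within 11.03 to 18.7, and the rise was 22.5-fold (log2 4.49, SE 0.26, adjusted p = 1.5e-07). Of its counts 53.8% also lie in exons of the overlapping gene Gm42674, from which they cannot be told apart. S100a6, from the same cluster on chromosome 3, was at 243, 181 and 268 CPM in WT and 811, 1172 and 1074 CPM in Snord67KO-1, a 4.42-fold rise (adjusted p = 7.37e-05). S100a10, the partner of annexin A2, rose 3.24-fold (adjusted p = 0.000217) and Anxa5 1.91-fold (adjusted p = 0.00468), and S100a11, Anxa11, Anxa2 and Anxa7 were higher as well. Anxa3 (chr5:96793339-96845966) went the other way, at 511, 491 and 535 CPM in WT and 137, 177 and 147 CPM in Snord67KO-1. The drop was 3.35-fold (log2 -1.74, SE 0.19, adjusted p = 0.000109). Leaving out any 1 library gave 6 to 8 higher calls and 1 lower call.

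Of 21 epithelial genes tested 2 were higher and 4 lower (median log2 difference 0.00, and -0.35 on exon counts), and of 10 mesenchymal genes 3 were higher and 3 lower (median 0.36, and on exon counts 3 higher and 1 lower with a median of 0.53). The lower epithelial calls were 2 without Snord67KO-1 replicate 1 or 2 and with DESeq2, and the higher ones 1 without WT replicate 1 or 3 or Snord67KO-1 replicate 2. The tight junction protein claudin-4 (Cldn4, chr5:134945119-134946934) had 50, 61 and 40 counts in the WT libraries and 1, 0 and 1 in Snord67KO-1. By summed counts WT was 86.2 times the knockout (95% interval 23.5 to 718, counting error only; adjusted p = 1.67e-06). The related claudins were below the filter, with 13 against 1 counts over each group for Cldn3 and 7 against 0 for Cldn7. E-cadherin (Cdh1) was at 172, 120.3 and 132 CPM in WT and 62.3, 69.5 and 67.3 CPM in Snord67KO-1, 2.15-fold lower (adjusted p = 0.004), and Epcam and the protease gene St14 were also lower. Cxadr, an adhesion protein of epithelial junctions, was 3.13-fold lower, at 228 ± 20.4 CPM (SD, n = 3) against 72.7 ± 1.89 CPM (adjusted p = 0.000217). Krt8, a keratin of simple epithelia, was 3.45-fold higher (adjusted p = 0.000451), at 116, 69.4 and 124 CPM in WT and 289.9, 379 and 400.3 CPM in Snord67KO-1. Krt18, its filament partner, was 2.41-fold higher (adjusted p = 0.0137), with WT replicate 2 at 461 CPM and WT replicates 1 and 3 at 206 and 157 CPM. The Krt18 call was lost without WT replicate 1 or 3 or Snord67KO-1 replicate 2 (adjusted p up to 0.0918).

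Vimentin (Vim, chr2:13573927-13582826), the intermediate filament of mesenchymal cells, was at 284, 308 and 234 CPM in WT and 1770, 2060 and 1940 CPM in Snord67KO-1. The rise was 6.96-fold (log2 2.80, SE 0.21, adjusted p = 2.53e-06). Bin1, a membrane-bending protein, and S100a4, described above, were the other higher members. The contractile genes of the same list were lower, namely Tpm1, a tropomyosin, which was 1.87-fold lower (adjusted p = 0.00674), and Acta2, smooth muscle actin, together with the cadherin gene Cdh11. Acta2 had 38, 114 and 13 counts in WT and 13, 26 and 9 in Snord67KO-1, the groups overlapped, and 1 position holds 66.7% of the counts. Its call (adjusted p = 0.0488) was kept only without WT replicate 3 or Snord67KO-1 replicate 2, and the adjusted p rose to 0.309 without WT replicate 2. Among adhesion receptors 4 of 22 were higher (18.2%) and 2 lower (9.09%). Vcam1, the ligand of integrin alpha 4, was at 56.1, 55.5 and 46.9 CPM in WT and 199, 223 and 237 CPM in Snord67KO-1, a 4.12-fold rise (adjusted p = 5.71e-05). Cd9, a tetraspanin, rose 2.93-fold (adjusted p = 0.000569), and the laminin receptor subunits Itga6 and Itgb4 rose 2.61-fold and 3.57-fold (adjusted p = 0.00305 and 0.00402). Itga2 and Parva were lower, but no lower call was left without Snord67KO-1 replicate 1, with DESeq2 or scaled by library totals alone. On exon counts 8 members were higher and 1 lower. In the actin cytoskeleton list 9 of 66 members were higher (13.6%) and 7 lower (10.6%), near the 10.5% and 7.17% of all genes. Without Snord67KO-1 replicate 1 or WT replicate 1 the lower calls were 4. Over the fits that left out 1 library the higher calls were 5 to 8, the fewest without Snord67KO-1 replicate 1, and scaled by library totals alone 14 were higher and 4 lower. Over all 6 libraries the actin-sequestering Tmsb4x was 2.48-fold higher (adjusted p = 0.0019) and the membrane linker Ezr 2.63-fold higher (adjusted p = 0.00303). The actin-bundling Lcp1 was 4.31-fold lower (adjusted p = 0.00465).

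Proteins of the snoRNA particles and of the nucleolus had the lowest median of the lists with 9 or more tested members. Of 58 tested members 20 were lower (34.5% against 7.17% of all genes) and none was higher, 52 of the 58 had a negative log2 difference, and the median was -0.69. Box C/D core proteins were among them. Nop56 (chr2:130274430-130279313) was at 129, 97.2 and 108 CPM in WT and 49.8, 55.0 and 30.9 CPM in Snord67KO-1, 2.50-fold lower (log2 -1.32, SE 0.26, adjusted p = 0.00361). Nop58 was 2.30-fold lower, at 241 ± 46.8 CPM (SD, n = 3) against 106 ± 29.0 CPM (adjusted p = 0.00402), and Fbl, the methyltransferase itself, was also called lower. Of the Nop56 counts 18.4% lie in exons of the overlapping gene Gm23650, and 1 position holds 19.2% of the Nop58 counts. Nolc1, a chaperone of snoRNP assembly, was 2.69-fold lower (adjusted p = 0.00347) and Mybbp1a, a nucleolar Myb-binding protein, 2.48-fold lower (adjusted p = 0.00301). The other called members were Heatr1, Ddx21, Dkc1, Wdr12, Nop2, Pes1, Noc3l, Ncl, Ddx27, Ddx18, Pdcd11, Rrp1b, Brix1, Gnl3 and Nop14, most of them factors of ribosome assembly. Npm1, the nucleolar protein nucleophosmin, did not pass the threshold, at 1123, 1534 and 1153 CPM in WT and 989, 1253 and 928 CPM in Snord67KO-1. The number of lower calls was 10 without Snord67KO-1 replicate 1, 12 of 51 with exon counts alone, and 7 with library totals as the scaling. No member was called higher under any of these settings.

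Myc (chr15:61985391-61990374), a transcription factor known to drive ribosome biogenesis genes, was at 197, 234 and 254 CPM in WT and 35.6, 63.7 and 52.8 CPM in Snord67KO-1. All knockout libraries lay well below all WT libraries, 4.57-fold in the fit (log2 -2.19, SE 0.24, adjusted p = 9.99e-05). Trp53, the gene of the p53 tumour suppressor and chosen after its values were seen, had 30, 20 and 29 counts in WT and 5, 6 and 6 in Snord67KO-1 and was 5.20-fold lower (adjusted p = 0.000905).

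Of 49 tested snoRNA host genes 15 were lower (30.6%), none was higher and 34 did not pass the test. The median was -0.58, and -0.38 on exon counts, 13 hosts had a positive log2 difference, and Nop56, Nop58, Dkc1 and Ncl were called in both lists. Zfas1, listed under its older name 1500012F01Rik, had 64, 96 and 52 counts in WT and 15, 21 and 19 in Snord67KO-1 and was 4.26-fold lower (adjusted p = 0.000593). One position holds 52.4% of its counts. Snhg5 was 3.09-fold lower, at 183, 294 and 209.7 CPM in WT and 55.1, 78.1 and 89.2 CPM in Snord67KO-1 (adjusted p = 0.000867), and Gas5 1.85-fold lower (adjusted p = 0.00639). Host RNA and snoRNA cannot be told apart in these totals, and 33.9% of the Snhg5 counts lie in Snord50b and 20.2% of the Gas5 counts in the snoRNA gene Gm22357. Sf3b3, a spliceosome protein and the host of Snord111, was at 164, 169 and 143 CPM in WT and 69.4, 72.3 and 74.6 CPM in Snord67KO-1, 2.20-fold lower (adjusted p = 0.0019). The remaining called hosts were Hspa9, Cct6a, Snhg1, Eif4a2, Taf1d, Prpf39 and Rpl13a. Leaving out any 1 library gave 11 to 14 lower calls and at most 1 higher call.

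The spliceosome was of interest because U6 is the known target of Snord67. Of 59 core spliceosome proteins 6 were lower (10.2%) and none higher, against 7.17% lower among all genes, and the median was -0.32. Snrnp200, the helicase that unwinds U4 from U6, was at 112, 92.6 and 82.8 CPM in WT and 32.0, 28.9 and 25.5 CPM in Snord67KO-1, 3.32-fold lower (log2 -1.73, SE 0.25, adjusted p = 0.000675). Usp39, a protein of the tri-snRNP, was 3.25-fold lower (adjusted p = 0.00455) and Prpf8, which holds the catalytic centre, 1.68-fold lower (adjusted p = 0.0213). The Prpf8 call was kept without WT replicate 2 or 3, and was lost without any other 1 library (adjusted p up to 0.0838). Prpf4b, Ddx46 and Sf3b3 were also called. Of 68 splicing regulators 6 were lower (8.82%) and none higher, with a median of -0.19 that was 0.01 on exon counts. The lower calls were 2 without Snord67KO-1 replicate 1, with DESeq2 and when scaled by library totals alone, and 2 to 7 over the fits that left out 1 library, with 3 without WT replicate 1. Son (chr16:91647506-91679221), a scaffold of nuclear speckles, was at 374, 373 and 375 CPM in WT and 148, 124 and 113 CPM in Snord67KO-1, 2.91-fold lower (adjusted p = 0.000285). Luc7l2, a U1-associated protein, was 2.57-fold lower (adjusted p = 0.00671), with 61.4% of its counts at 1 position, and Rbm39, Srrm2, Taf15 and Srpk1 were the others.

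Of 77 tested cytosolic ribosomal protein genes 4 were higher and 4 lower (5.19% each), and the median was 0.01. On exon counts 7 were higher and 1 lower with a median of 0.16, scaled by library totals alone 9 were higher and 1 lower, and without Snord67KO-1 replicate 1 the calls were 1 in each direction. Leaving out WT replicate 1 or Snord67KO-1 replicate 2 or 3 also left 1 higher call, and leaving out WT replicate 2 left 2. Rpl37a was 2.34-fold higher (adjusted p = 0.0019), and Rpl22l1, a paralogue of Rpl22, was 2.28-fold lower (adjusted p = 0.00305), with 40.2% of its counts also in exons of Gm33051. Ribosomal protein genes have many near-identical pseudogenes, so the assignment of their reads is uncertain. Of 47 translation factors 8 were lower (17.0%) and 1 was higher. On exon counts 7 were lower and 4 higher, scaled by library totals alone 5 were lower and 5 higher, and without WT replicate 2 13 were lower. Eif1a, Eif4a2 and Eif5a were 2.51-fold, 1.85-fold and 1.88-fold lower (adjusted p = 0.00364, 0.00651 and 0.007), and Eif3e was the member called higher. The elongation factor Eef1a1 was at 4115, 3481 and 4171 CPM in WT and 4749, 5250 and 5299 CPM in Snord67KO-1 and did not pass the threshold (adjusted p = 0.235).

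**Figure D3:**
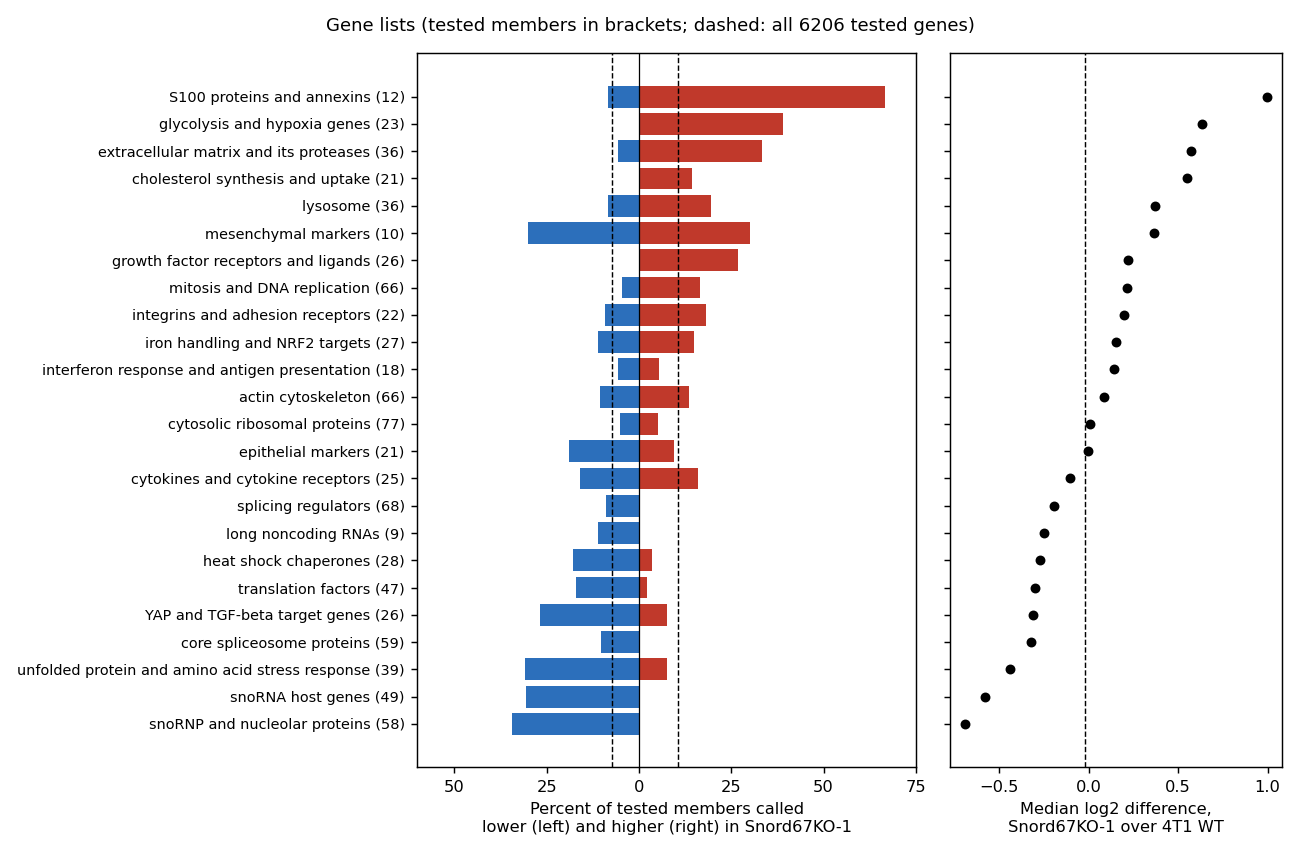
Left, percent of the tested members of each gene list called lower (blue, to the left) or higher (red, to the right) in Snord67KO-1, with the 7.17% and 10.5% of all genes dashed. Right, the median log2 difference of the list; the S100 and annexin list lies highest at 1.00 and the snoRNP and nucleolar list lowest at -0.69.

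The plot of gene lists rests on all 6 libraries. Without Snord67KO-1 replicate 1, the library with the smallest share of counts in exons, the higher calls were 11 in the matrix list, 8 in the S100 and annexin list, 7 in the glycolysis and hypoxia list, 10 in the mitosis list, 6 in the lysosome list and 5 in the growth factor list. The lower calls were then 12 among snoRNA hosts, 9 in the unfolded protein and amino acid list, 6 in the YAP and TGF-beta list, 6 among translation factors and 3 in the core spliceosome list.

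Genes of glucose use and the hypoxia response were higher where they were called. Of 23 tested members 9 were higher (39.1%) and none lower, with a median of 0.63. The glycolytic enzymes Pfkl, Aldoa and Pkm rose 2.92-fold, 2.14-fold and 2.07-fold (adjusted p = 0.00101, 0.00305 and 0.00493). Pfkl was at 35.3, 32.4 and 27.6 CPM in WT and 90.7, 101 and 91.0 CPM in Snord67KO-1. The glucose transporter Slc2a1, Ldha, and the hypoxia genes P4ha1, Egln3, Bnip3l and Ndrg1 completed the called set. With DESeq2 4 members were called higher, and without any 1 library 5 to 9.

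Cholesterol genes had 3 higher (14.3%) and no lower calls of 21, with a median of 0.55 and 18 of the 21 above 0. The synthesis enzyme Fdps had 12, 6 and 6 counts in WT and 29, 31 and 33 in Snord67KO-1, a 3.46-fold rise (adjusted p = 0.00361), and the synthesis enzyme Hmgcs1 was also called, with 76.1% of the Fdps counts also in exons of Gm43738. In the lysosome list 7 of 36 members were higher (19.4%) and 3 lower (8.33%). On exon counts 11 were higher and 1 lower, with DESeq2 4 were higher and 0 lower, and leaving out any 1 library gave 3 to 8 higher calls and 0 to 4 lower. The fewest higher calls were without WT replicate 1, and no lower call was left without WT replicate 1 or Snord67KO-1 replicate 1 or 3. The protease genes Ctsl and Ctsb rose 3.57-fold and 2.27-fold (adjusted p = 0.000422 and 0.00361), and Npc2, which carries cholesterol out of the lysosome, 2.56-fold (adjusted p = 0.000968). Ctsl was at 268, 146 and 259 CPM in WT and 703, 741 and 955 CPM in Snord67KO-1. Gpnmb, Sqstm1 and Atp6v1h were lower. Among iron and NRF2 genes 4 of 27 were higher (14.8%) and 3 lower (11.1%). No lower call was left without Snord67KO-1 replicate 1, with DESeq2 or scaled by library totals alone. The higher calls were then 3, 2 and 5, and on exon counts 4 were higher and 1 lower. The ferritin heavy chain gene Fth1 was at 455, 386 and 422 CPM in WT and 996, 1265 and 1197 CPM in Snord67KO-1, a 2.73-fold rise (adjusted p = 0.000432).

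The unfolded protein and amino acid stress list went down in part. Of 39 tested members 12 were lower (30.8%) and 3 higher, with a median of -0.44. On exon counts 10 were lower and 6 higher, scaled by library totals alone 7 and 6, and with DESeq2 6 and 0. Leaving out any 1 library gave 8 to 13 lower and 1 to 4 higher calls. The tRNA synthetase genes Wars and Eprs were 2.94-fold and 2.09-fold lower (adjusted p = 0.00381 and 0.00455), asparagine synthetase (Asns) 2.37-fold (adjusted p = 0.00539), and the phosphatase regulator Ppp1r15a 5.97-fold (adjusted p = 0.00416). Asns was at 164, 150.4 and 204 CPM in WT and 48.0, 69.5 and 100.1 CPM in Snord67KO-1. Gars, Phgdh, Slc7a1, Psat1, Trib3, Mthfd2, Nupr1 and the transcription factor Atf4 were the other lower members. The list was drawn up from chaperones of the endoplasmic reticulum and targets of Atf4. The presence of such targets among the 12 is therefore not a result. Atf5, Calr and Pdia6 were higher, and the endoplasmic reticulum chaperone Hspa5 was at 805 ± 131 CPM (SD, n = 3) in WT and 686 ± 126 CPM in Snord67KO-1 (adjusted p = 0.488). Among heat shock chaperones 5 of 28 were lower (17.9%) and 1 was higher (3.57%). The mitochondrial chaperones Hspd1 and Hspa9 were 2.67-fold and 2.36-fold lower (adjusted p = 0.000653 and 0.00149), and Hspd1 was at 561, 641 and 441 CPM in WT and 199, 185 and 229 CPM in Snord67KO-1. Hspa4l was 2.64-fold higher (adjusted p = 0.00359).

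Targets of YAP and of TGF-beta were lower more often than higher. Of 26 tested members 7 were lower (26.9%) and 2 higher, with a median of -0.31. Amotl2, a YAP-binding angiomotin, had 38, 37 and 37 counts in WT and 13, 5 and 6 in Snord67KO-1 and was 5.31-fold lower (log2 -2.41, SE 0.31, adjusted p = 0.000304). Cyr61, also named Ccn1, was at 112, 116 and 60.7 CPM in WT and 7.11, 17.4 and 29.1 CPM in Snord67KO-1, 5.38-fold lower (adjusted p = 0.00123), and Ankrd1 was 2.92-fold lower (adjusted p = 0.00152). Ajuba, Ctgf, Pmepa1 and Tead1 were lower too. Ldlrad4, an inhibitor of TGF-beta signalling, was higher, and so was Wwtr1. Wwtr1, which encodes TAZ, the partner and paralogue of YAP, was 2.35-fold higher, at 110.5 ± 9.49 CPM (SD, n = 3) against 259 ± 15.9 CPM (adjusted p = 0.00101).

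RefSeq promoters of GRCm38.p6 are shown for genes of both directions, as the 250 bases before the first listed transcription start, 5′ to 3′ on the gene's strand. Capitals mark the TEAD motif GGAATG and the AP-1 motif TGANTCA, each searched on both strands, so that CATTCC is the TEAD motif on the other strand. Ankrd1 and Ajuba are examples of the YAP targets, Mmp3 of a gene that rose and Cldn4 of one that fell, and each holds a motif. The promoters of Spp1 and S100a4, which also rose, and of Nop56 and Nolc1, which were lower, hold neither motif. That of Amotl2 holds 1 TEAD motif.
Ankrd1, chr19:36119845-36120094, minus strand: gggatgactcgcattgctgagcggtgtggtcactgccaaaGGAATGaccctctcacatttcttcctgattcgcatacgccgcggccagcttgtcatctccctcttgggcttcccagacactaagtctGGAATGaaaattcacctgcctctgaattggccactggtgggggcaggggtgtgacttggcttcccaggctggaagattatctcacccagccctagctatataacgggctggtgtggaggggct
Ajuba, chr14:54577662-54577911, minus strand: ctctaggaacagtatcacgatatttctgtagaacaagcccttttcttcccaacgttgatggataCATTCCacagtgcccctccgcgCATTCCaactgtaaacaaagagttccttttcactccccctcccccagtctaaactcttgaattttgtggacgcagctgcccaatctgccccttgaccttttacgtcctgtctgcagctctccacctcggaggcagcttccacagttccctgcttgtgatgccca
Mmp3, chr9:7445572-7445821, plus strand: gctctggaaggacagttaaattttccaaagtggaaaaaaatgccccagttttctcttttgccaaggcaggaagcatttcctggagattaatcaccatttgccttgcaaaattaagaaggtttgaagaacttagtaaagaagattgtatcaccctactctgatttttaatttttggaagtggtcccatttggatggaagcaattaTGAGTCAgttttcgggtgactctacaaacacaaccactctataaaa
Cldn4, chr5:134946935-134947184, minus strand: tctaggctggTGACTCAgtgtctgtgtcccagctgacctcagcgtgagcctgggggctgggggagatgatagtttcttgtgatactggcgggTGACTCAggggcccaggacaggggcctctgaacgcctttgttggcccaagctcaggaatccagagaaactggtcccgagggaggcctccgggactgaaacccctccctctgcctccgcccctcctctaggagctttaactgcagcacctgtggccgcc
The TEAD motif was found in 8 of the 17 promoters of the YAP and TGF-beta list that had a sequence, and in 12.6% of all 27025 promoters and 9.94% of those of tested genes. The AP-1 motif was in 42 of 477 promoters of genes called higher (8.81%) and 14 of 350 of genes called lower (4.00%). It was in 3.95% of those of all tested genes and 6.87% of all 27025 promoters. These are counts of letters and were not tested, and Mmp3 and Cldn4, which moved in opposite directions, both hold the AP-1 motif.

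Signalling genes moved in both directions. Of 26 growth factor ligands and receptors 7 were higher (26.9%) and none lower, with a median of 0.22 that was -0.01 on exon counts. Leaving out any 1 library gave 3 to 7 higher calls, the fewest without Snord67KO-1 replicate 3, and DESeq2 gave 3. The EGF receptor ligand amphiregulin (Areg) had 3, 1 and 0 counts in WT and 25, 12 and 15 in Snord67KO-1 (log2 3.40, SE 0.59, adjusted p = 0.0019), a rise of 10.6-fold. The endocytic receptor Lrp1 rose 3.38-fold (adjusted p = 0.000487), and Tgfa, Hbegf, Fgfrl1, Fgfr2 and Ephb4 were also higher. Among 25 cytokine genes and receptors 4 were higher and 4 lower (16% each). The chemokine gene Cx3cl1 had 3, 3 and 1 counts in WT and 25, 18 and 25 in Snord67KO-1, 8.22-fold higher (adjusted p = 0.000476), and the TNF receptor gene Tnfrsf1b was 5.12-fold higher (adjusted p = 0.000872). Cxcl5, a neutrophil attractant, had 26, 28 and 15 counts in WT and 5, 2 and 3 in Snord67KO-1 and was 7.59-fold lower (adjusted p = 0.000432). Cxcl16 had 25, 22 and 15 and 1, 0 and 5 counts (adjusted p = 0.000897), and Csf1, the macrophage growth factor, was 2.31-fold lower (adjusted p = 0.00818). Il6ra and Il34 were the other higher members and Lif the other lower one. In the interferon list 1 of 18 members was higher, Ifitm3, and 1 lower, Samhd1 (5.56% each). Neither call was kept in all fits that left out 1 library.

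Genes of mitosis were higher in small numbers. Of 66 members of the mitosis and DNA replication list 11 were higher (16.7%) and 3 lower, with a median of 0.21. Smc4, a condensin subunit, was at 99.7, 92.6 and 127 CPM in WT and 276, 258 and 326 CPM in Snord67KO-1, a 2.71-fold rise (adjusted p = 0.000653). Hmmr, Ccnb1 and Cdc20 rose 5.45-fold, 2.92-fold and 4.07-fold (adjusted p = 0.00149, 0.00481 and 0.00639). Prc1, Ccnb2, Cenpf, Cenpe, Ccna2, Mki67 and Kif4 were the others, while the 3 lower members were Ccnd2, Dnmt1 and Pcna. The count of higher calls was 5 to 13 when 1 library was left out and 6 with DESeq2. The lower calls were 0 to 2 when 1 library was left out, and 0 without Snord67KO-1 replicate 1. With DESeq2 or scaled by library totals alone the lower calls were also 0.

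Other genes with the smallest p values stood outside these lists. Oaf and Nptx1 rose 8.86-fold and 10.3-fold (adjusted p = 6.8e-06 and 2.09e-05), and Clu, the secreted chaperone clusterin, 4.26-fold (adjusted p = 0.000107). Nptx1, a secreted pentraxin, was at 22.8, 9.26 and 11.03 CPM in WT and 126, 165 and 176 CPM in Snord67KO-1. On the lower side were the kinase gene Plk2 (7.19-fold, adjusted p = 0.000476), the fatty acid desaturase family gene Fads3 (10.5-fold, adjusted p = 0.000595), and Stbd1, a glycogen-binding protein (4.38-fold, adjusted p = 0.000569). The inner mitochondrial membrane protein gene Ghitm and the transporter gene Atp13a3 were 2.84-fold and 2.69-fold lower (adjusted p = 0.000324 and 0.000566). Plk2 had 30, 23 and 24 counts in WT and 4, 1 and 7 in Snord67KO-1. Spag9 and Rnf138, looked at because their splicing was of interest in these cells, did not pass the threshold as totals, with log2 differences of 0.26 and -0.50 (adjusted p = 0.36 and 0.411). The counts of Spag9 lie to 61.6% in exons of the overlapping gene Gm11518.

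Several of the largest changes carry the name of a gene that overlaps another. The table has no strand, so a position inside overlapping genes has 1 name only. The gene called 4930455D15Rik had 4, 5 and 7 counts in WT and 190, 131 and 226 in Snord67KO-1, a 29.1-fold rise (adjusted p = 1.55e-07), but 89.9% of its counts lie in exons of Tslp, which encodes the cytokine thymic stromal lymphopoietin, and 0.178% in its own. Ralgps1 was 4.97-fold higher (adjusted p = 0.000101), with 68.9% of its counts in exons of Angptl2, a secreted angiopoietin-like protein. Gm11651, chosen after its values were seen, had 0 counts in each WT library and 26, 14 and 20 in Snord67KO-1, at least 17.5-fold higher against a floor of 3 counts over the WT group, and 88.3% of its counts lie in exons of Ace, the angiotensin-converting enzyme. On the lower side, Gvin1 (15.3-fold, adjusted p = 0.000221) had 96.2% of its counts in exons of the related gene Gm4070. Of the called genes with a GENCODE entry, 16 of 629 higher and 12 of 423 lower ones had at least 50% of their counts in exons of another gene and less than 50% in their own.

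Other called genes were read mostly outside any of their exons. Of the 629 genes called higher with an annotation, 232 (36.9%) had less than 20% of their counts in their own exons, against 24 of 423 called lower (5.67%) and 702 of all 5972 (11.8%). The actin-binding Coro2a was 7.01-fold higher, at 241, 181 and 243 CPM in WT and 1387, 1488 and 1785 CPM in Snord67KO-1 (adjusted p = 3.36e-06), with 7.12% of its counts in exons, and its exon counts alone gave a log2 difference of 2.42 (adjusted p = 0.00027). Ranbp3l was 8.88-fold higher (adjusted p = 2.44e-05) with 0.893% of its counts in exons. Gm20871, from a multicopy family on the Y chromosome, was 3.29-fold lower (adjusted p = 0.000361) with none of its counts in exons, so its source is uncertain. Within the 232 genes, replicate 1 was the highest of the 3 Snord67KO-1 libraries for 200 (86.2%), and 123 were still called without it. Among the 229 higher genes with 80% or more of their counts in exons, replicate 1 was the highest for 37 (16.2%), and 169 were still called without it. Of the 649 genes called higher, 307 could be tested on exon counts alone and 281 of these were called, and of the 445 called lower 378 could be tested and 264 were called.

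**Figure D4:**
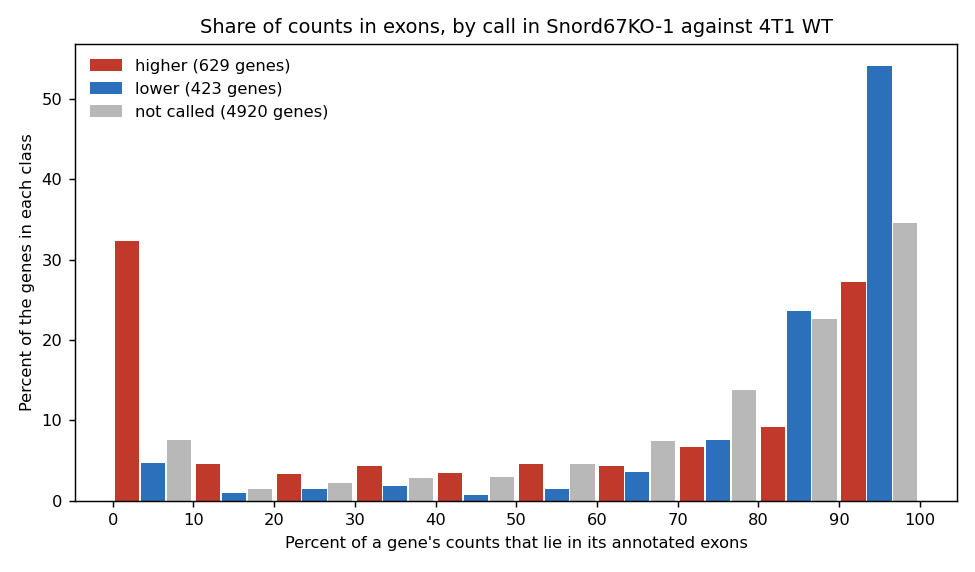
Percent of the genes called higher (red), lower (blue) or not called (grey) in Snord67KO-1 by the share of their counts that lies in annotated exons of the named gene, in steps of 10%. Genes called higher have a separate peak at the low end that the genes called lower lack.

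A total can also be set by 1 position. In 566 members 1 position held 20% or more of the counts. Cd44, the osteopontin and hyaluronan receptor, had 12059, 6511 and 9978 counts in WT and 7195, 5798 and 8583 in Snord67KO-1, and did not pass the threshold (log2 -0.58, SE 0.29, adjusted p = 0.181). Of these counts 40.3% fell on 1 position and 1.06% in exons. On exon counts alone Cd44 was higher, by 1.43 on the log2 scale (adjusted p = 0.000293).

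The second clone was used to ask where the clones differed. Snord67KO-2 was compared directly with Snord67KO-1 in 1 fit over the 9 libraries, and 402 of the 6206 genes (6.48%) differed, 226 higher and 176 lower in Snord67KO-1. With exon counts alone the numbers were 42 and 67, without Snord67KO-2 replicate 2 they were 31 and 69, and without Snord67KO-1 replicate 1 they were 58 and 82. The Snord67KO-2 libraries are shallower, with 212463 to 423278 counts. S100a4 was at 327 ± 8.75 CPM (SD, n = 3) in Snord67KO-1 and 44.6 ± 9.89 CPM in Snord67KO-2 on the scale of the 9 libraries, a log2 difference of 2.91 (adjusted p = 1.9e-07). Vim was higher in Snord67KO-1 by 1.68 on the log2 scale (adjusted p = 6.51e-06), Vcam1 by 1.97 (adjusted p = 0.000168), Nptx1 by 2.13 (adjusted p = 0.000338) and Dmp1 by 1.85 (adjusted p = 0.00741). Vcam1 in Snord67KO-2 was at 57.2 ± 25.8 CPM, against 51.0 ± 4.97 CPM in WT. Lower in Snord67KO-1 were Cldn4, at 1.16 ± 1.00 CPM against 78.1 ± 26.2 CPM (adjusted p = 9.26e-07), Cxcl5 (log2 -3.11, adjusted p = 0.00119), Cxcl16 (adjusted p = 0.00105), Nop56 (log2 -1.49, adjusted p = 0.00191), Anxa3 (log2 -1.22, adjusted p = 0.00058) and Myc (log2 -1.24, adjusted p = 0.00952). Nop56 was at 123 ± 8.82 CPM in Snord67KO-2 and 107 ± 15.5 CPM in WT.

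Spp1 stood the other way round, lower in Snord67KO-1 at 2178 ± 234 CPM than in Snord67KO-2 at 3481 ± 186 CPM (log2 -0.68, adjusted p = 0.0224). For Fn1 the difference between the clones was -0.03 on the log2 scale (SE 0.16), for Mmp3 -0.22 (SE 0.21), for Ctsl -0.31 (SE 0.21), for Pkm 0.01 (SE 0.20) and for Rpl22l1 0.05 (SE 0.29). None of these 5 passed the threshold (adjusted p from 0.413 to 0.996), and a miss does not show that the clones are alike.

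**Figure D5:**
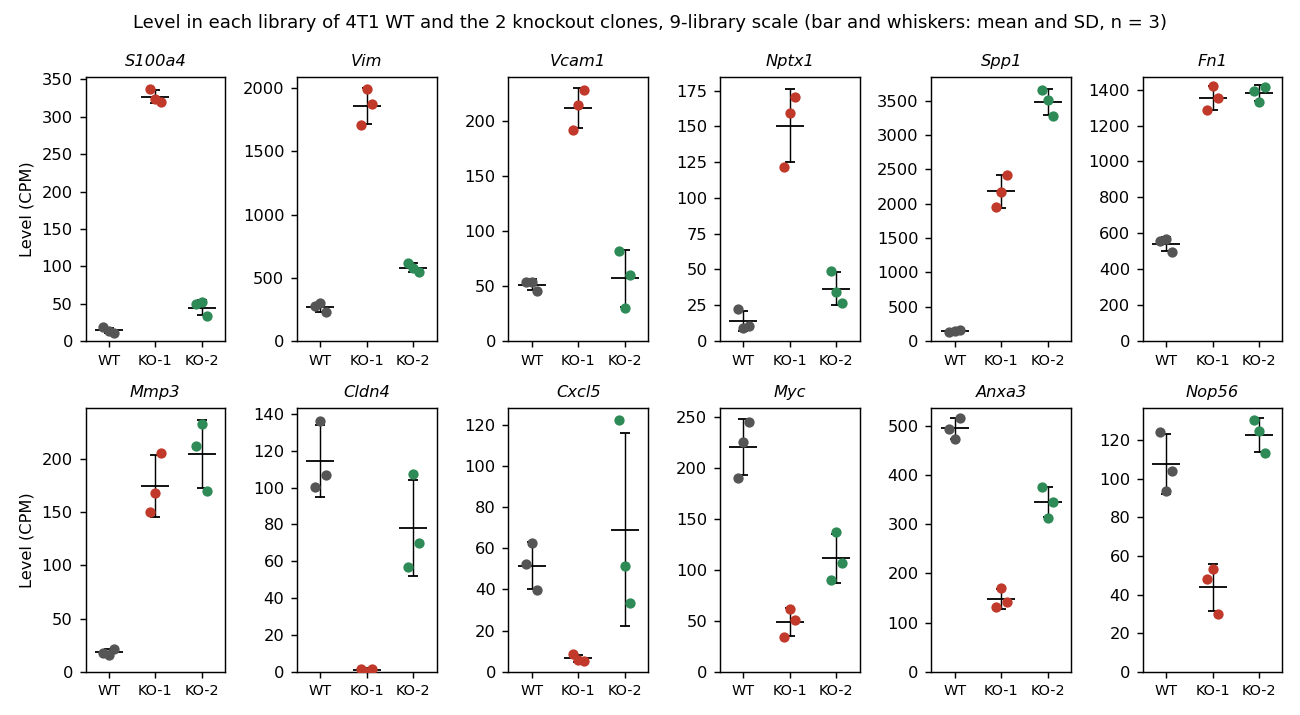
Level in CPM, on the scale of all 9 libraries, of 12 genes in each library of 4T1 WT (grey), Snord67KO-1 (red) and Snord67KO-2 (green), with the mean and SD of each group. S100a4, Vim, Vcam1 and Nptx1 are highest in Snord67KO-1, Spp1 is highest in Snord67KO-2, Fn1 and Mmp3 are high in both clones, and Cldn4, Cxcl5 and Nop56 are low in Snord67KO-1 and not in Snord67KO-2.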

How the data were processed

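Oxidized RibOxi-seq libraries of poly(A) RNA were used from 4T1 WT, Snord67KO-1 and Snord67KO-2 cells, 3 replicates each; 9 control samples without a column in the table were not analysed here. The deposited table holds raw counts, 1 row for each base where reads end, with a gene name but no strand. Per the labels and the study's methods, the authors trimmed reads with cutadapt, merged pairs with pear and mapped with STAR. The submitters' processing notes name mm10, the methods m39 for the mRNA index; 98.6% of named positions lay inside that gene in GENCODE M21 (GRCm38), which was used here. Multimapping, duplicates and the meaning of the mispriming mark are not given in the sources used here. The study's adapters hold random bases, but whether PCR copies were removed with them is not stated, so intervals and floors cover counting error only.

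Marked positions and Rn45s were dropped, counts were summed by chromosome and gene, and genes with 50 or more counts over the 6 libraries were kept. They were tested with edgeR 4.0.16 (quasi-likelihood, TMM scaling, two-sided, Benjamini-Hochberg adjustment over all genes tested, R 4.3.3). No test on these totals is stated in the study's methods. The biological coefficient of variation was 0.203. Replicates of a group differed beyond sampling noise (chi-square per degree of freedom 2.15 to 7.57 in the 6 libraries). The clones were compared in 1 fit over 9 libraries. DESeq2 1.42.0, limma 3.58.1 (voom), other scalings, filters and position sets, a replicate block and fits without each library were alternatives. The fit was tested on simulated data.

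The members and the 27 gene lists (1253 entries, 1201 in the table, 15 under an older name) were chosen with earlier results of these data known, and no set test was run. Named genes were the 15 called genes with the smallest p in each direction whose groups did not overlap, up to 4 called genes and the 2 with the most counts of each list, and Spp1, Fn1, Spag9 and Rnf138; part of them is printed, and some items are not reported here. Genes named without values complete the called members of a list. None of the 15 listed genes of the mitochondrial genome was found by name in the table, so their level was not measured here. Promoters are from RefSeq (GRCm38.p6); 4780 of the tested genes matched by name.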

Additional observations from a re-analysis of the deposited data

Results flagged for a closer look

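Genes that differed from WT and are given above with their values are listed here where Snord67KO-1 and Snord67KO-2 also differed in the direct test over 9 libraries (edgeR quasi-likelihood test, adjusted p from 1.44e-07 for Gm20871 to 0.046 for Lcp1).

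Higher in Snord67KO-1 than in Snord67KO-2, with the log2 difference in parentheses, were Mgp (3.58), Gm11651 (3.03), S100a4 (2.91), Ranbp3l (2.73), Nptx1 (2.13), Vcam1 (1.97), Dmp1 (1.85), Vim (1.68), 4930455D15Rik (1.38), Ralgps1 (1.19), Clu (1.07), Wwtr1 (0.97), Smc4 (0.93), Ank (0.88), Coro2a (0.73) and S100a6 (0.70). The fitted values of Mgp and Gm11651 rest on few counts in Snord67KO-2 and are not bounds.

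Lower in Snord67KO-1 than in Snord67KO-2 were Cldn4 (-5.62), Cxcl16 (-3.59), Gvin1 (-3.56), Cxcl5 (-3.11), Gm20871 (-2.66), Lcp1 (-1.64), Nop56 (-1.49), Myc (-1.24), Anxa3 (-1.22), Atp13a3 (-1.19), Cxadr (-1.18), Eif4a2 (-1.13), Snhg5 (-1.02), Cdh1 (-1.01), Son (-0.98), Hspd1 (-0.96), Asns (-0.94), Ghitm (-0.89), Eprs (-0.83), Eif5a (-0.81), Nop58 (-0.80) and Spp1 (-0.68). Several of these encode junction proteins (Cldn4, Cxadr, Cdh1), chemokines (Cxcl5, Cxcl16) or proteins of the snoRNA particle (Nop56, Nop58). Spp1 is the 1 gene here that was above WT and lower than in the second clone. The fitted values of Cldn4 and Cxcl16 rest on few counts in Snord67KO-1 and are not bounds. Every value here is a difference between single clones, and clone and edit cannot be told apart. A difference between the clones does not mean that Snord67KO-2 was at the WT level. On the scale of the 9 libraries Coro2a was at 214 CPM in WT and 908 CPM in Snord67KO-2, and 4930455D15Rik at 12.6 and 143 CPM. Vcam1 was at 51.0 and 57.2 CPM.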

How the results depend on the processing

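Against 649 higher and 445 lower genes, DESeq2 called 352 and 180, limma-voom called 393 higher, library totals alone left 171 lower, a filter of 100 counts gave 377 and 289 of 3327 genes tested, and no filter gave 1062 and 743 of 19198. Exon counts alone gave 389 and 285 of 4305 genes. Leaving out 1 library gave 372 to 565 higher and 221 to 408 lower calls (372 and 252 without WT replicate 1, 394 and 221 without Snord67KO-1 replicate 1, 471 and 250 without Snord67KO-1 replicate 3). Chosen after seeing the data, counts outside exons gave 202 and 103 of 1228 genes, and exon counts without Snord67KO-1 replicate 1 gave 226 and 110. Fewer genes or libraries enter several of these fits, and otherwise the cause was not tested. Between the clones, against 226 and 176, DESeq2 called 60 and 62, library totals left 65 lower, exon counts (also chosen after seeing the data) gave 42 and 67, and leaving out 1 library gave 31 to 226 and 69 to 142 (58 and 82 without Snord67KO-1 replicate 1; 77 and 87, 31 and 69, and 89 and 88 without Snord67KO-2 replicates 1, 2 and 3).

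Among the named genes given above with values these signs changed. Cd44 was at 0.64 by number of positions, 1.43 on exon counts and 1.41 on exon counts without Snord67KO-1 replicate 1. Hspa5 was at 0.0219 in the last of these fits. On counts outside exons Pkm was at -0.51 and Spag9 at -0.0266. Some named genes without printed values also changed sign, among them Rps4x in 8 and Eef2 in 7 of 19 fits. A replicate block gave 825 higher and 647 lower calls against WT and 231 and 184 between the clones. Same-numbered libraries deviated with correlations of -0.06, 0.21 and 0.16, and differently numbered ones with -0.23 to 0.12. These values do not settle whether the numbers pair the libraries, and the main fit does not pair them. Genes near 50 counts carry the least depth, and a missed call there is not evidence of no difference.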

Other observations

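The direction of the differences varied by chromosome, which was described and not tested. On chromosome 16, 34 of 191 tested genes were lower and 7 higher, with a median log2 difference of -0.42, and on exon counts alone the median was -0.47. Son, Atp13a3 and Cxadr, described above, are on this chromosome. Chromosomes 6 and 19 had medians of -0.29 and -0.24, with 44 lower and 26 higher of 270 genes and 27 lower and 12 higher of 215. Chromosome 3 lay highest, at 0.22, with 62 higher and 13 lower of 385 genes, among them S100a4, S100a6 and Vcam1, and chromosomes 8 and 17 had medians of 0.19 and 0.16. Against Snord67KO-2 the median was -0.29 on chromosome 16 and 0.21 on chromosome 3.

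The E-box motif CACGTG, searched on both strands of the 250 bases before the start, was in 35 of 350 promoters of genes called lower (10%), 33 of 477 of genes called higher (6.92%) and 9.23% of those of all tested genes. Among 46 promoters of the snoRNP and nucleolar list 2 held it. The share of TEAD motifs was 12.2% in genes called higher and 11.7% in genes called lower. These shares are descriptions and were not tested.

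Selp and Lgr6 were picked for their values. Selp, which encodes P-selectin, an adhesion receptor of platelets and endothelium, had 0, 0 and 1 counts in WT and 33, 18 and 19 in Snord67KO-1, a ratio of 61.3 (95% interval 10.6 to 2455, counting error only), with 93.0% of its counts in exons. Lgr6, a receptor for R-spondins, had 1, 1 and 1 and 22, 13 and 15 counts, a ratio of 14.6 (4.72 to 73.2), with 43.4% in exons.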
